A study of Homo sapiens with 4 samples.

Results

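The MYC, MAX and MXD network is a family of basic helix-loop-helix leucine zipper transcription factors. The genes described here are MYC, MYCL, MAX, MXD1, MXI1, MXD3, MXD4, MNT, MLX and MLXIP, 10 of the 58174 genes in the deposited table, each found by its gene symbol in 1 row. Cells of the lines H1299 and HCC827 were transfected with siCDH3, an siRNA that targets CDH3, or with the control siCTR, and their RNA was sequenced at 48 h. H1299 cells were established from the lymph node of a patient with non-small cell lung cancer, and HCC827 cells from a lung adenocarcinoma that carries an activating deletion in EGFR. There were 4 groups with 1 library each, namely siCDH3 and siCTR in H1299 and siCDH3 and siCTR in HCC827, so a difference within a line rests on a single pair of libraries. The labels name no genetic change in any group, and the transfected siRNA is the stated difference between the libraries of a line. The genes were chosen by a list of symbols drawn up with the measured siCDH3 to siCTR differences in TPM in view, so all values are descriptions, nothing was tested and no p-value is given. In bulk RNA, fewer cells of a kind and less RNA per cell cannot be told apart.

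MYC and MYCL activate transcription as dimers with MAX, bound to the E-box motif CACGTG. The MXD proteins (MXD1, MXI1, MXD3 and MXD4) and MNT compete for MAX and for the same motif, and repress transcription through the SIN3 and histone deacetylase co-repressor complex. MLX pairs with MLXIP (MondoA), a sensor of glucose-derived metabolites, and with the related MLXIPL (ChREBP), and it can also dimerise with MXD1, MXD4 and MNT. In many cell types MXD1 rises as cells leave the cell cycle and differentiate, whereas MYC is high in dividing cells.

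Values are TPM, which are scaled per transcript length and to a fixed sum per library, so that genes can be compared within a library. The read depth is unknown, and the columns summed to between 999859 and 999943 TPM. CDH3, the targeted gene for P-cadherin, had 78.8 TPM in siCDH3 HCC827 and 173 TPM in siCTR HCC827. In H1299 it had 0.169 TPM with siCDH3 and 1.21 TPM with siCTR, a low level in both libraries. Of 6 epithelial markers, 6 reached 5 TPM in both HCC827 libraries and 3 in both H1299 libraries, where EPCAM, KRT19 and CDH1 stayed under 1 TPM. Of 5 lung lineage markers, 2 reached 5 TPM in HCC827 (NKX2-1 and NAPSA) and 0 in H1299. Of 14 hematopoietic, fibroblast and endothelial markers, 1 reached 5 TPM in H1299 (CD68, a lysosomal protein gene that many carcinoma cells also express) and 2 did in HCC827 (CD68 and COL1A1).

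MXD1 was the member with the lowest siCDH3 to siCTR ratio in both lines. It had 1.01 TPM in siCDH3 H1299 and 10.1 TPM in siCTR H1299, 9.95-fold lower with siCDH3. In HCC827 it had 1.51 TPM with siCDH3 and 10.7 TPM with siCTR, 7.12-fold lower with siCDH3. Both siCDH3 libraries were thus low and both siCTR libraries were at a like, higher level. The log2 ratio of TPM + 1, siCDH3 over siCTR, was -2.46 in H1299 and -2.23 in HCC827. Adding 1 TPM before taking the ratio understates the change of a gene this low: with 0.1 TPM added in its place the log2 ratios were -3.19 and -2.75. Among genes with at least 5 TPM in at least 1 library of the line, 17 of 11622 had a lower log2 ratio than MXD1 in H1299 and 15 of 11043 did in HCC827. MXD1 passed this filter only through the siCTR library of each line, and nothing is read from its rank.

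**Figure D1:**
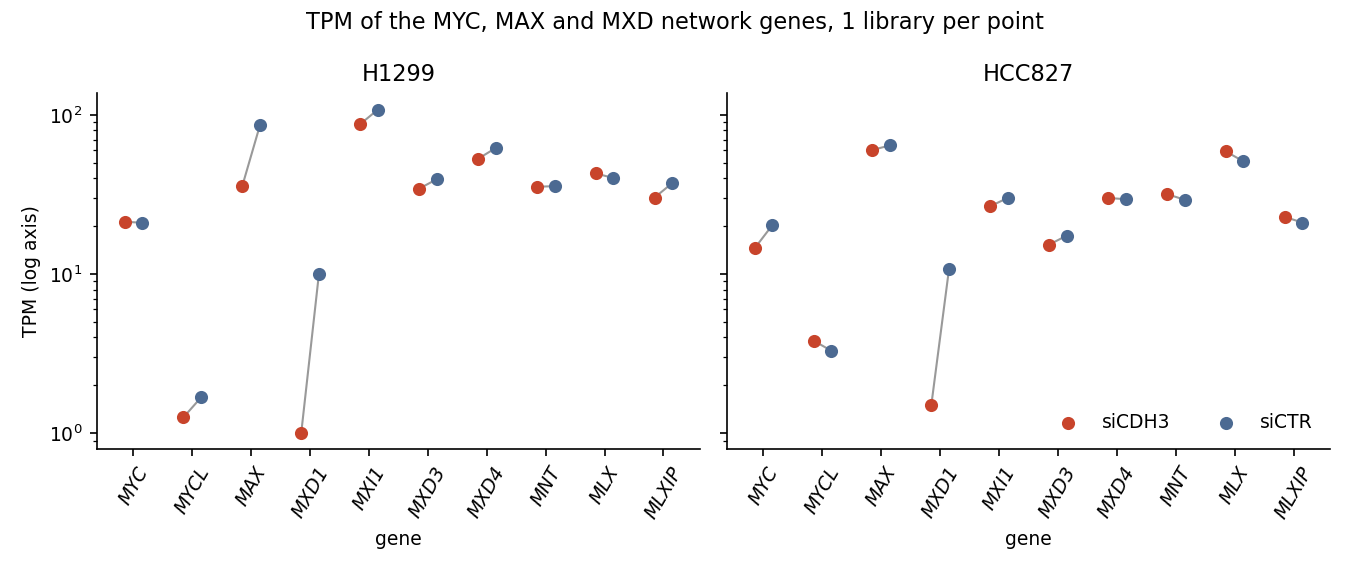
TPM (log axis) of each network gene in H1299 (left panel) and HCC827 (right panel), with siCDH3 in red left of siCTR in blue and 1 library per point. MXD1 is the steepest line in both panels, at 1.01 against 10.1 TPM in H1299 and 1.51 against 10.7 TPM in HCC827, and MAX is steep in H1299 only, at 36.0 against 86.6 TPM.

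The TPM of MXD1 carries an uncertainty of annotation. In GENCODE release 29, MXD1 has 6 transcripts on chromosome 2, of 490 to 5587 bases. The coding transcripts MXD1-201 and MXD1-206 have 5587 and 5580 bases and share no base with another gene. Another coding transcript, MXD1-204, starts upstream, inside the neighbouring gene SNRNP27, and has 860 bases, of which 237 (27.6%) are exonic bases of SNRNP27 on the same strand. SNRNP27 encodes a protein of the spliceosomal U4/U6.U5 particle. Whether MXD1-204 was in the annotation behind the deposited TPM is not known. If it was, a read from these bases can be given to either gene, and a read given to a short transcript adds more TPM than one given to a long transcript. The splice junction printed first lies in 1 MXD1 and 2 SNRNP27 transcripts, and the one printed second in 4 MXD1 transcripts and in no SNRNP27 transcript. They are shown because they mark where reads of MXD1 can and cannot be told from those of its neighbour. Both are on the plus strand of GRCh38, and capitals mark the bases after the junction.
MXD1-204 and SNRNP27 (chr2:69903231-69903245 joined to chr2:69904254-69904268): gaagaggaagtacagGCAGTACATGAATCG
MXD1-201 (chr2:69915389-69915403 joined to chr2:69916121-69916135): agcggcgggagagagAAGCTGAACATGGTT

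SNRNP27 itself had 38.2 TPM in siCDH3 H1299 and 49.7 TPM in siCTR H1299, a log2 ratio of -0.37. In HCC827 it had 37.7 TPM with siCDH3 and 31.8 TPM with siCTR, a log2 ratio of 0.24. SNRNP27 was thus lower with siCDH3 in one line and higher in the other. Its level was above that of MXD1 in every library, and by the most with siCDH3, where MXD1 had 1.01 TPM in H1299 and 1.51 TPM in HCC827. No transcript-level values were used here, and which MXD1 transcripts make up its TPM was not tested.

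**Figure D2:**
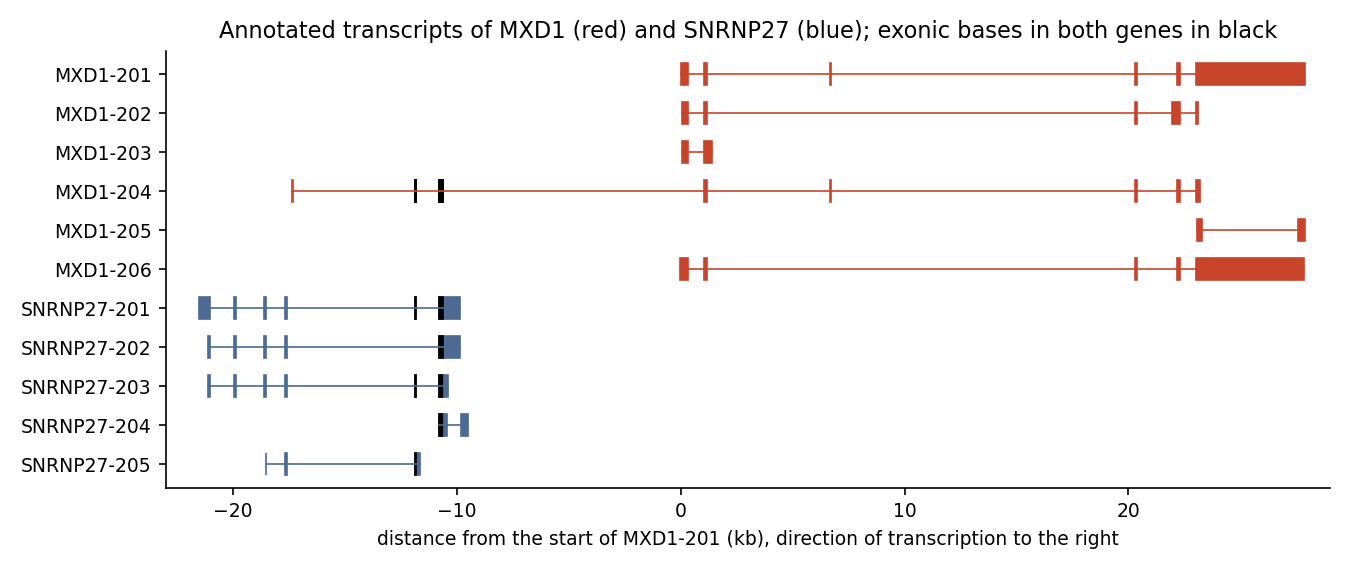
Annotated transcripts of MXD1 (red, 6 rows) and SNRNP27 (blue, 5 rows), by distance in kb from the start of MXD1-201, with exons as boxes and exonic bases present in both genes in black. MXD1-204 is the single MXD1 transcript with black boxes, which hold 237 bases.

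MAX, the common partner of MYC and the MXD proteins, differed between siCDH3 and siCTR in H1299 but little in HCC827. It had 36.0 TPM in siCDH3 H1299 and 86.6 TPM in siCTR H1299, 2.41-fold lower with siCDH3, a log2 ratio of -1.25. In HCC827 it had 60.3 TPM with siCDH3 and 64.4 TPM with siCTR, a log2 ratio of -0.09. The siCDH3 H1299 library was the low one of the 4, and the other three lay between 60.3 and 86.6 TPM. In H1299, 96 of 11622 genes had a lower log2 ratio. Nothing is read from this rank, since the contrast was known when the genes were chosen. MAX shares no same-strand exonic base with another gene annotated in GENCODE release 29, and 184 bases with AL139022.1 on the opposite strand, from which reads cannot be told apart if the counting did not use strand. The difference between the lines was not tested.

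MYC, the main activator of the family, was at 21.4 TPM in siCDH3 H1299 and 21.0 TPM in siCTR H1299. In HCC827 it had 14.5 TPM with siCDH3 and 20.3 TPM with siCTR, 1.40-fold lower with siCDH3, a log2 ratio of -0.46. The siCDH3 HCC827 library was therefore the low one, and the other three lay within 20.3 to 21.4 TPM. In HCC827, 456 of 11043 genes had log2 ratios below that of MYC, and nothing is read from this rank either. MYCL (L-MYC), a paralogue best known from small cell lung cancer, was under 5 TPM in every library. It had 1.26 TPM in siCDH3 H1299, 1.68 TPM in siCTR H1299, 3.82 TPM in siCDH3 HCC827 and 3.30 TPM in siCTR HCC827. MYCN, a further paralogue, was listed at 0 in 3 libraries and had 0.0361 TPM in siCDH3 H1299.

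The repressors other than MXD1 stayed within 2-fold in both lines. MXI1 (MXD2), the most abundant member in H1299, had 87.6 TPM in siCDH3 H1299 and 108 TPM in siCTR H1299, and 26.7 TPM in siCDH3 HCC827 and 30.2 TPM in siCTR HCC827. Its log2 ratios were -0.30 and -0.17, lower with siCDH3 in both lines. MXD3, a member linked to S phase in proliferating cells in mouse, had 34.4 TPM in siCDH3 H1299 and 39.5 TPM in siCTR H1299, and 15.3 TPM in siCDH3 HCC827 and 17.5 TPM in siCTR HCC827. MXD3 has 926 same-strand exonic bases in common with the small GTPase gene RAB24, so its TPM is also uncertain. For MXD4 there are 80 such bases, in common with MIR4800. MXD4 had 53.0 TPM in siCDH3 H1299 and 62.0 TPM in siCTR H1299, and 30.1 TPM in siCDH3 HCC827 and 29.6 TPM in siCTR HCC827. MNT, the broadly expressed antagonist of MYC, had 35.4 TPM in siCDH3 H1299 and 35.7 TPM in siCTR H1299, and 31.8 TPM in siCDH3 HCC827 and 29.3 TPM in siCTR HCC827. Over MXI1, MXD3, MXD4 and MNT, the log2 ratios ranged from -0.30 to -0.01 in H1299 and from -0.18 to 0.11 in HCC827. Small ratios can still rank low: in HCC827, 1815 of 11043 genes were lower than MXI1 and 1733 were lower than MXD3. Nothing is read from these ranks. Reads from exonic bases shared on the opposite strand are also uncertain if strand was not used. Such bases number 1065 in MNT (AC006435.1), 770 in MLX (PSMC3IP), 205 in MXI1 (AL360182.2), 1158 in MXD3 (PRELID1) and 226 in MYCL (AL033527.2).

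In the MLX arm, MLX was slightly higher with siCDH3 in both lines. It had 42.9 TPM in siCDH3 H1299 and 40.2 TPM in siCTR H1299, and 59.0 TPM in siCDH3 HCC827 and 51.1 TPM in siCTR HCC827, with log2 ratios of 0.09 and 0.20. MLXIP had 30.3 TPM in siCDH3 H1299 and 37.4 TPM in siCTR H1299, and 22.9 TPM in siCDH3 HCC827 and 21.1 TPM in siCTR HCC827. MLXIPL, the glucose-responsive partner of MLX known from liver, was not one of the 10 genes and had 16.6 TPM in siCDH3 H1299, 10.1 TPM in siCTR H1299, 4.04 TPM in siCDH3 HCC827 and 5.06 TPM in siCTR HCC827. MGA, another MAX partner, had 11.3 TPM in siCDH3 H1299 and 12.2 TPM in siCTR H1299, and 6.96 TPM in siCDH3 HCC827 and 7.70 TPM in siCTR HCC827.

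Of the 10 genes, 9 reached 5 TPM in at least 1 library of each line, all but MYCL. At a 2-fold size rule (log2 ratios from 1 upwards or from -1 downwards) 2 were lower in siCDH3 H1299, MXD1 and MAX, and 1.58% of the 11622 genes tested in that line were. In HCC827 1 was lower, MXD1, and 0.833% of the 11043 genes tested were. None was 2-fold higher, beside 0.878% of all genes in H1299 and 1.01% in HCC827. With the median of all genes set to 0 the counts were also 2 in H1299 and 1 in HCC827, where 1.15% and 0.915% of all genes were 2-fold lower, and 0 members were higher, where 1.2% and 0.942% of all genes were. Nothing is read from these counts, since this contrast was known when the genes were chosen. The median log2 ratio of the 9 genes was -0.22 in H1299, where that of all genes was -0.11, and -0.09 in HCC827, where that of all genes was 0.03. Relative to the median of all genes, 6 of 9 members were lower in each line. In H1299 the log2 ratio of a gene moved with its transcript length and GC content, a trend that took 10.7% of the variance over 11610 genes, beside 0.228% in HCC827. With this trend removed, the log2 ratios in H1299 stood at -2.38 for MXD1 and -1.30 for MAX.

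**Figure D3:**
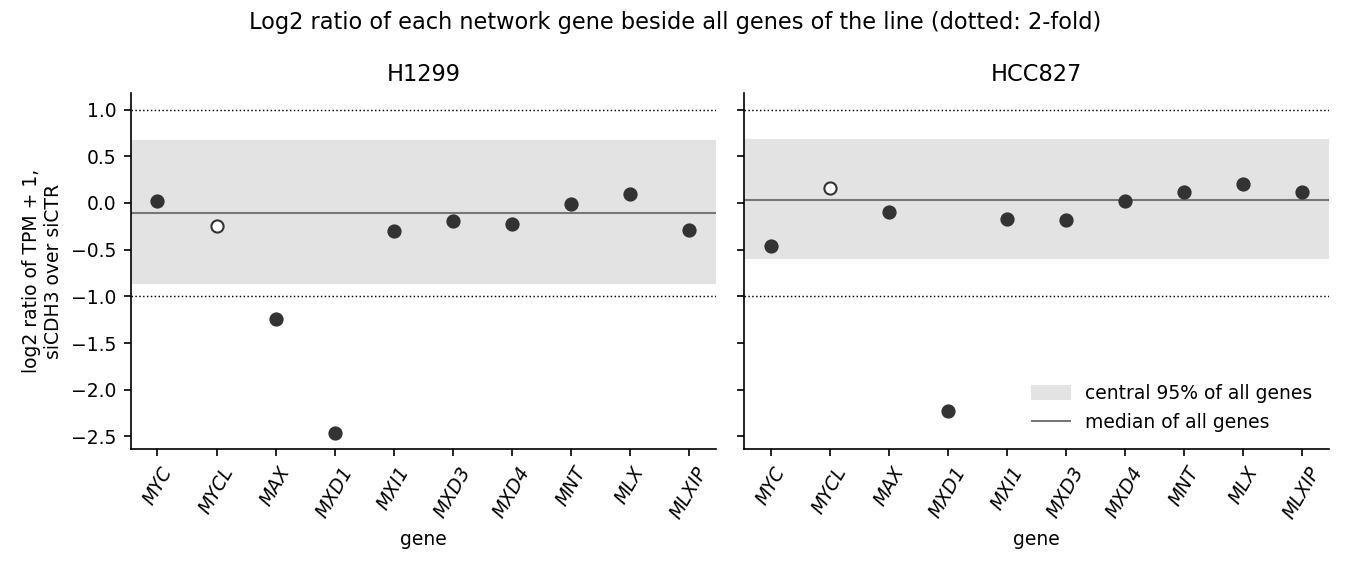
Log2 ratio of TPM + 1, siCDH3 over siCTR, for each network gene in H1299 (left) and HCC827 (right). The grey band holds the central 95% of all genes of the line, the grey line is their median, dotted lines mark 2-fold and open circles are under 5 TPM in both libraries. MXD1 lies below the band in both lines (-2.46 and -2.23) and MAX in H1299 (-1.25), and the other points lie inside it.

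Summed within a library, the repressors MXD1, MXI1, MXD3, MXD4 and MNT outweighed MYC and MYCL in all 4. The repressor sum was 211 TPM in siCDH3 H1299 and 255 TPM in siCTR H1299, and 105 TPM in siCDH3 HCC827 and 117 TPM in siCTR HCC827. MYC and MYCL together had 22.6 TPM in siCDH3 H1299 and 22.7 TPM in siCTR H1299, and 18.4 TPM in siCDH3 HCC827 and 23.6 TPM in siCTR HCC827. The ratio of the repressor sum to the MYC sum was therefore 9.35 with siCDH3 and 11.2 with siCTR in H1299, and 5.75 with siCDH3 and 4.97 with siCTR in HCC827. It was lower with siCDH3 in H1299 and higher with siCDH3 in HCC827. MXD1 made up 0.574% of the TPM of the 4 MXD genes in siCDH3 H1299 and 4.58% in siCTR H1299, and 2.05% in siCDH3 HCC827 and 12.2% in siCTR HCC827. MXD1 was thus a minor MXD transcript in every library, and MXI1 held 49.8% of the MXD sum with siCDH3 and 49.2% with siCTR in H1299, and 36.3% with siCDH3 and 34.3% with siCTR in HCC827. The TPM of MAX over the summed TPM of its 7 listed partners was 0.154 in siCDH3 H1299 and 0.312 in siCTR H1299, and 0.487 in siCDH3 HCC827 and 0.457 in siCTR HCC827. These are sums of transcript levels and say nothing of protein.

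Of the MXD genes, MXI1 differed most between the lines. It was 3.28-fold lower in HCC827 than in H1299 with siCDH3 and 3.58-fold lower with siCTR. MXD3 was 2.25-fold lower with siCDH3 and 2.26-fold lower with siCTR, and MXD4 was 1.76-fold lower with siCDH3 and 2.10-fold lower with siCTR. Of the 8 members with at least 5 TPM in a siCDH3 library, 2 were at least 2-fold lower in HCC827 on the TPM + 1 scale, where 24.2% of 12542 genes were. Of 9 in the siCTR libraries 3 were, where 27.8% of 12601 genes were. These shares are near those of all genes, and nothing is read from them. None was 2-fold higher, beside 15.3% of all genes with siCDH3 and 13.5% with siCTR. The median log2 ratio of all genes, HCC827 over H1299, was -0.23 with siCDH3 and -0.39 with siCTR. Mitochondrially encoded genes took 34.4% of TPM in siCDH3 HCC827 and 36.2% in siCTR HCC827, beside 16.4% in siCDH3 H1299 and 13.5% in siCTR H1299. TPM have a fixed sum, so a larger share of these genes leaves less for the rest. The part of this in the medians was not tested. Relative to these medians MXI1 alone of the members with at least 5 TPM was past 2-fold lower, with log2 ratios of -1.45 with siCDH3 and -1.41 with siCTR, where 19.1% and 18.3% of all genes were 2-fold lower. None of them was 2-fold higher on that scale, beside 18.9% of all genes with siCDH3 and 19.2% with siCTR. MYCL, under 5 TPM in every library, stood at 1.33 with siCDH3 and 1.07 with siCTR. On the same scale MXD3 stood at -0.89 with siCDH3 and -0.74 with siCTR, and MXD4 at -0.56 with siCDH3 and -0.65 with siCTR. MLX stood at 0.68 with siCDH3 and 0.73 with siCTR, and MAX at 0.96 with siCDH3 and -0.03 with siCTR. MXD1 was nearly level in the siCTR libraries, with 10.7 TPM in HCC827 and 10.1 TPM in H1299. In order of TPM, MAX, MLX and MXI1 led in siCTR HCC827, and MXI1, MAX and MXD4 led in siCTR H1299. Neighbours in that order cannot be told apart by a replicate spread, since each library is single.

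The genes that the network acts with and on were described by lists of textbook members. Past 2-fold in either direction were 2.46% of all genes in H1299 and 1.84% in HCC827, so a list of this size holds few such genes at that rate, and nothing is read from a count of 0. Medians of the lists stand beside all-gene medians of -0.11 in H1299 and 0.03 in HCC827. Of 17 genes of the SIN3 and HDAC co-repressor complex, which MXD proteins recruit, 17 reached 5 TPM in H1299 and 16 in HCC827, and 0 were past 2-fold in either line, beside 2.46% and 1.84% of all genes. The list medians were -0.08 in H1299 and 0.01 in HCC827. BRMS1L had the lowest log2 ratio in H1299 (-0.78) and SAP30L the highest (0.69). In HCC827 the histone chaperone gene RBBP4 had the highest (0.62, beside -0.38 in H1299) and the deacetylase gene HDAC2 the lowest (-0.40). Of 15 MYC co-activators and partners all reached 5 TPM and 0 were past 2-fold, beside the same 2.46% and 1.84% of all genes, with medians of -0.04 and -0.01. ZBTB17 (MIZ1, through which MYC represses genes) had 9.98 TPM in siCDH3 HCC827 and 15.9 TPM in siCTR HCC827, and 26.7 TPM in siCDH3 H1299 and 29.2 TPM in siCTR H1299.

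Of 14 genes of MYC protein turnover, 0 were past 2-fold in either line, beside 2.46% of all genes in H1299 and 1.84% in HCC827. The list medians were -0.20 in H1299, where that of all genes was -0.11, and -0.02 in HCC827, where it was 0.03. AURKA, a mitotic kinase that also stabilises MYC proteins, had 35.3 TPM in siCDH3 H1299 and 68.9 TPM in siCTR H1299, and the deubiquitinase gene USP28 had 23.1 TPM in siCDH3 H1299 and 38.4 TPM in siCTR H1299. CIP2A, an inhibitor of the phosphatase that acts on MYC, had 5.25 TPM in siCDH3 H1299 and 8.74 TPM in siCTR H1299. In HCC827 the ubiquitin ligase gene STUB1 had 65.5 TPM with siCDH3 and 38.4 TPM with siCTR, BTRC had 4.68 TPM with siCDH3 and 8.19 TPM with siCTR, and SKP2 had 13.2 TPM with siCDH3 and 8.66 TPM with siCTR. In H1299 STUB1 and SKP2 were on the other side, STUB1 with 50.2 TPM in siCDH3 and 63.2 TPM in siCTR cells and SKP2 with 6.92 TPM in siCDH3 and 9.43 TPM in siCTR cells. BTRC had 5.06 TPM in siCDH3 H1299 and 6.60 TPM in siCTR H1299. In HCC827 AURKA had 45.5 TPM with siCDH3 and 48.6 TPM with siCTR, USP28 had 22.9 TPM with siCDH3 and 25.9 TPM with siCTR, and CIP2A had 7.79 TPM with siCDH3 and 7.98 TPM with siCTR.

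MYC-activated genes of the nucleolus and of growth numbered 57, of which 53 reached 5 TPM in H1299 and 54 in HCC827. None of them was past 2-fold in either line, beside 2.46% of all genes in H1299 and 1.84% in HCC827. Their median log2 ratio was -0.03 in H1299, where 38 of 53 were above the median of all genes, and 0.03 in HCC827, where 27 of 54 were. The H1299 ratios carry the length and GC trend given above, and its part in that count was not tested. DCTPP1, a nucleotide pyrophosphatase gene, had 19.8 TPM in siCDH3 H1299 and 31.7 TPM in siCTR H1299, and 20.8 TPM in siCDH3 HCC827 and 36.8 TPM in siCTR HCC827. The importin gene IPO4 had 29.9 TPM in siCDH3 H1299 and 16.3 TPM in siCTR H1299, and 45.1 TPM in siCDH3 HCC827 and 31.1 TPM in siCTR HCC827. IPO4 has 3470 exonic bases in common with AL136295.4, a gene whose TPM differed the other way. The ribosome biogenesis gene NIP7 had 32.4 TPM in siCDH3 HCC827 and 18.6 TPM in siCTR HCC827, and 14.7 TPM in siCDH3 H1299 and 16.7 TPM in siCTR H1299.

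Of 18 other well-known MYC-activated genes, 16 reached 5 TPM in each line. Past 2-fold was 1 in H1299, beside 2.46% of all genes, and 0 in HCC827, beside 1.84%. The gene was EIF4E, the cap-binding translation factor, with 10.6 TPM in siCDH3 H1299 and 33.8 TPM in siCTR H1299, and 18.3 TPM in siCDH3 HCC827 and 12.9 TPM in siCTR HCC827. LDHA, lactate dehydrogenase A, had 1084 TPM in siCDH3 H1299 and 1683 TPM in siCTR H1299, and 325 TPM in siCDH3 HCC827 and 340 TPM in siCTR HCC827. POLR1B, a subunit of RNA polymerase I, had 11.0 TPM in siCDH3 H1299 and 20.3 TPM in siCTR H1299, and 20.3 TPM in siCDH3 HCC827 and 16.8 TPM in siCTR HCC827. The list medians were -0.18 in H1299 and 0.01 in HCC827. Of 11 MYC-repressed genes, 8 reached 5 TPM in H1299 and 5 in HCC827, with 0 past 2-fold, beside 2.46% and 1.84% of all genes, and medians of -0.23 and 0.10. The CDK inhibitor gene CDKN1A had 79.7 TPM in siCDH3 H1299 and 104 TPM in siCTR H1299, and 26.7 TPM in siCDH3 HCC827 and 26.0 TPM in siCTR HCC827.

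Of 5 targets of MLX and MondoA, 2 reached 5 TPM in H1299 and 3 in HCC827, with 0 past 2-fold, beside 2.46% and 1.84% of all genes. The list medians were -0.40 in H1299, where that of all genes was -0.11, and -0.45 in HCC827, where it was 0.03. Below the median of all genes were 1 of 2 in H1299 and 3 of 3 in HCC827, too few genes to read a shift from. TXNIP, the thioredoxin-interacting protein gene most used as a readout of MondoA, had 64.1 TPM in siCDH3 HCC827 and 88.1 TPM in siCTR HCC827 and was listed at 0 in both H1299 libraries. PFKFB3, a regulator of glycolysis, had 6.38 TPM in siCDH3 H1299 and 13.5 TPM in siCTR H1299, and a log2 ratio of -0.02 in HCC827. KLF10 had 44.4 TPM in siCDH3 HCC827 and 72.4 TPM in siCTR HCC827, and 57.8 TPM in siCDH3 H1299 and 51.3 TPM in siCTR H1299.

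**Figure D4:**
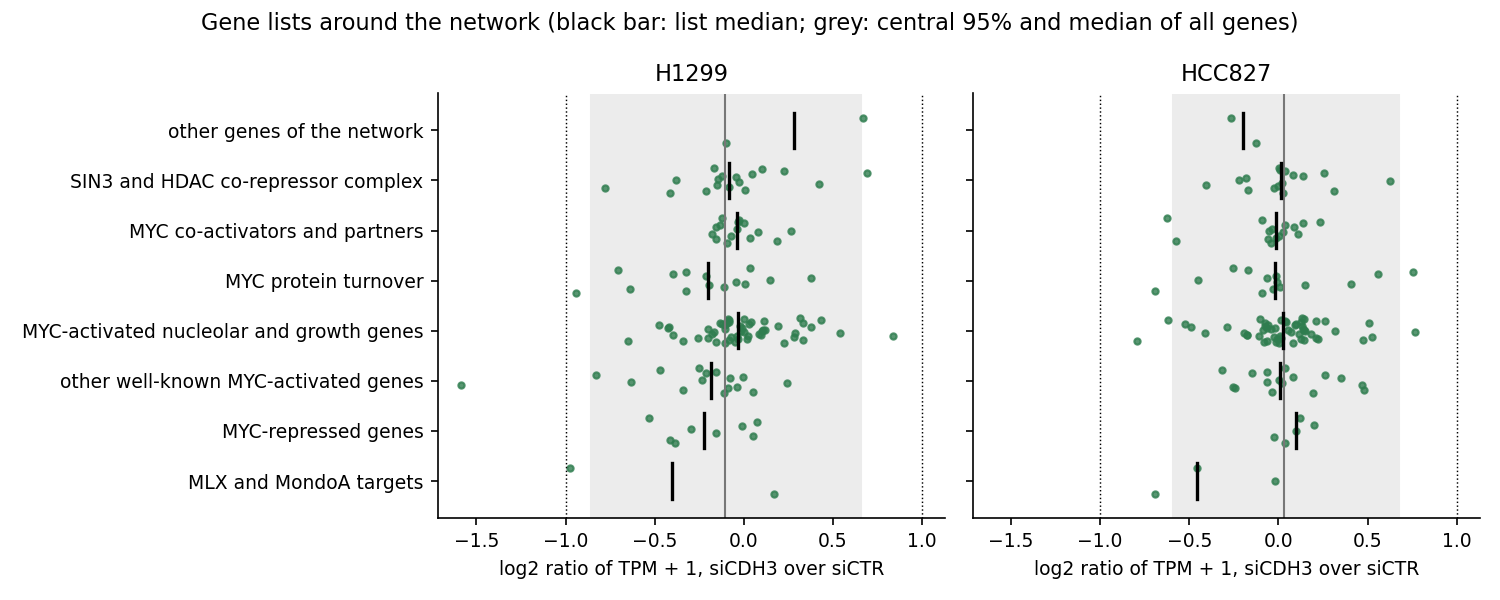
Log2 ratio of TPM + 1, siCDH3 over siCTR, of each gene past 5 TPM in the lists around the network, in H1299 (left) and HCC827 (right). Points are genes, black bars list medians, the grey band and line the central 95% and the median of all genes, and dotted lines 2-fold. EIF4E in H1299 (-1.59) is the 1 point beyond 2-fold.

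The E-box CACGTG, which is its own reverse complement, was searched for in RefSeq promoters (GRCh38.p14, from 250 bases before to 50 after each start). It was found in 7.26% of 35116 promoters, and in at least 1 promoter of 8.77% of 27305 gene symbols. These symbols were not limited to genes that reached 5 TPM here, so they are not a matched background for the lists. Of the 9 members with a promoter sequence, all but MYC, 3 held it, namely MXD4, MNT and MLX. MXD1, with 1 promoter sequence, and MAX, with 2, did not hold these letters in the window. Of MYC-activated genes of the nucleolus and of growth, 25 of 46 matched genes held it (54.3%), as did 7 of 16 of the other well-known MYC-activated genes (43.8%). Lists of other kinds held it too, with 3 of 4 matched MLX and MondoA targets and 4 of 10 genes of MYC protein turnover. So did 3 of 11 MYC co-activators and partners and 1 of 16 genes of the SIN3 and HDAC complex. None of 8 MYC-repressed genes or of 3 further genes of the network did. The sites of the 3 members are shown with the motif in capitals, since this is the sequence for which MYC, MXD and MLX dimers compete. They start 238, 193 and 50 bases before the transcription start of MXD4, MNT and MLX, in that order. A match is a description of the sequence and not a bound site.
MXD4 (chr4:2262332-2262357, minus strand): gccgggccacCACGTGctgttgctaa
MNT (chr17:2401238-2401263, minus strand): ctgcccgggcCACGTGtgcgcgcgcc
MLX (chr17:42567040-42567065, plus strand): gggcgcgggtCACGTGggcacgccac

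The genes whose pattern was most like that of MXD1 were taken by the Euclidean distance of log2(TPM + 1) over the 4 libraries, each gene centred on its own mean, among 12941 genes. The nearest were AL136295.4 (distance 0.38), JPT2 (0.58), MPI (0.78), MAP1S (0.94) and AC118553.2 (0.96). AL136295.4 had 1.27 TPM in siCDH3 H1299 and 15.1 TPM in siCTR H1299, and 1.53 TPM in siCDH3 HCC827 and 12.5 TPM in siCTR HCC827. JPT2 had 16.1 TPM in siCDH3 H1299 and 63.7 TPM in siCTR H1299, and 24.6 TPM in siCDH3 HCC827 and 88.8 TPM in siCTR HCC827. MPI, which encodes mannose phosphate isomerase, had 13.3 TPM in siCDH3 H1299 and 52.8 TPM in siCTR H1299, and 16.8 TPM in siCDH3 HCC827 and 42.8 TPM in siCTR HCC827. In all of these genes both siCDH3 libraries lay below both siCTR libraries, as in MXD1, by whose pattern they were chosen.

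MXD1 was 1 of 13 genes that were at least 2-fold lower with siCDH3 in both lines, 0.134% of the 9724 genes tested in both, and 1 of 4 that were at least 4-fold lower, 0.0411%. It reached 5 TPM only in the siCTR libraries, so it passed the filter through the group where it was high. This contrast was also known when MXD1 was chosen, so nothing is read from its place among these genes. Genes that share same-strand exonic bases with another annotated gene, as MXD1 does, made up 17.9% of the genes tested in both lines (1735 of 9715 with an annotation). Any overlap was counted, however short, and MXD1 shares 237 of its 6351 exonic bases. Such genes made up 9 of the 13 genes 2-fold lower in both lines (69.2%) and 4 of the 4 genes 4-fold lower in both. MXD1 is itself among the 9 and the 4. Of 13 genes 2-fold higher in both lines they made up 5 (38.5%). Within a line they made up 31.1% of the genes 2-fold lower and 42.2% of those 2-fold higher in H1299, and 39.1% and 41.4% in HCC827. Of the 5 genes nearest to MXD1, 3 share such bases. They are AL136295.4 (4173 of 4351 exonic bases), JPT2 (149 of 4768) and AC118553.2 (3661 of 5765). These shares are given beside the values of MXD1, and the part of shared exons in them was not tested.

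**Figure D5:**
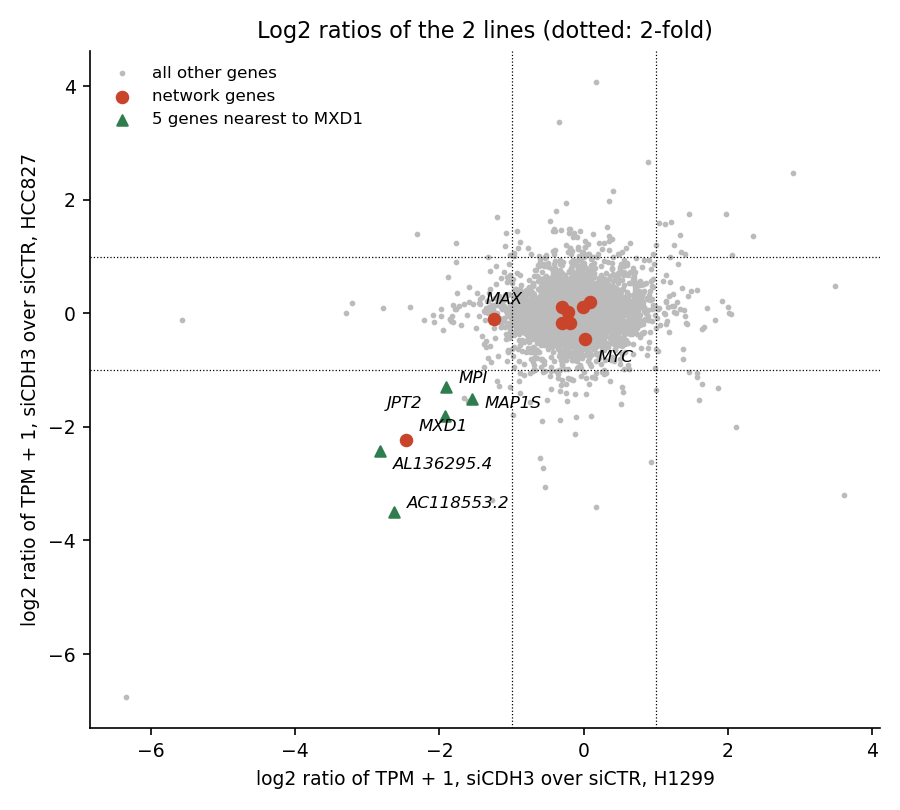
Log2 ratio of TPM + 1, siCDH3 over siCTR, in H1299 (horizontal axis) and HCC827 (vertical axis), for 9724 genes with at least 5 TPM in a library of each line. Network genes are red circles, the 5 genes nearest to MXD1 green triangles, and dotted lines mark 2-fold. MXD1 (-2.46 and -2.23) lies far to the lower left of the other network genes, which except for MAX in H1299 (-1.25) lie within 2-fold.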

How the data were processed

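RNA-seq values of 4 libraries (H1299 and HCC827, each with siCDH3 or siCTR, 48 h) were used. The authors deposited TPM for 58174 genes, 1 column per library, which the labels name. The build is hg19 per the submitters' processing notes, and for the aligner, quantifier, annotation and strandedness the sources used here name nothing. TPM keeps no depth, so no counting interval or detection limit can be given. Log2 ratios of TPM + 1 were computed here for genes with at least 5 TPM in at least 1 of the 2 libraries compared. Each group has 1 library, and no test was made, since the genes were chosen with the siCDH3 to siCTR contrast known.

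The members and lists were chosen with earlier results of these data known. All 149 distinct list genes were matched, CIP2A by its older symbol. Named genes are the members, CDH3, up to 3 genes per list and line with the largest log2 ratio in size, and the 5 nearest to MXD1. SNRNP27, RAB24 and other overlapping genes were chosen after their values were seen. Exon overlap, transcript lengths, GC content and junctions come from GENCODE release 29 (GRCh38), a later build than the deposited table, joined by gene identifier. Promoters come from RefSeq. Alternatives were other pseudocounts, filters, size rules and scalings, and, added after seeing the data, removal of a length and GC trend. The ratio and size rule were run on simulated data, with changes larger than the rule planted in genes above the level of MXD1. That run checks the code and says nothing of precision at low TPM. Python 3.11.15, pandas 2.3.3 and numpy 2.4.6 were used.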

Additional observations from a re-analysis of the deposited data

Results flagged for a closer look

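For 4 members past the filter the log2 ratio of siCDH3 over siCTR had opposite signs in the 2 lines, with 1 library per group. MYC stood at 0.022 in H1299 and -0.46 in HCC827, MXD4 at -0.22 in H1299 and 0.026 in HCC827, MNT at -0.013 in H1299 and 0.11 in HCC827, and MLXIP at -0.29 in H1299 and 0.11 in HCC827. The difference between the lines was not tested. The sign changed under at least 1 of 9 alternatives for MYC and MNT in H1299 and for MXD4 in HCC827. Among the 9, the filter settings leave a ratio as it was and could not change its sign.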

How the results depend on the processing

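No paired test was made, and each group has 1 library. A fit of line and siRNA over the 4 libraries, which would pair siCDH3 with siCTR within a line, was not made, since the genes were chosen with that contrast known. MXD1 stayed lower with siCDH3 under all 9 alternatives that give its ratio, at log2 ratios of -3.19 to -1.32 in H1299 and -2.75 to -1.27 in HCC827. MAX in H1299 stood at -1.30 to -1.14. The filter settings among the 9 change which genes are counted and leave each ratio as it was, so they could not move these values. With a filter at 20 TPM, which MXD1 misses, the members 2-fold lower with siCDH3 numbered 1 in H1299 and 0 in HCC827. With a 4-fold rule MXD1 was the 1 member lower in each line, at -2.46 in H1299 and -2.23 in HCC827. For HCC827 against H1299, the members 2-fold lower numbered 1 with siCDH3 and 1 with siCTR under a pseudocount of 5, with the median set to 0, without mitochondrially encoded and ribosomal protein genes and under quantile normalization, and 0 and 0 with a 4-fold rule. With the length and GC trend removed they numbered 1 with siCDH3. With a filter at 1 TPM or no filter, 1 member was counted as higher in HCC827 with siCDH3, MYCL. With a 1.5-fold rule or TPM without mitochondrially encoded and ribosomal protein genes, 1 was also counted as higher with siCDH3, but it was MAX. Of the 5 genes nearest to MXD1, 4 were shared with a pseudocount of 0.1 and 3 with the distance over the log2 ratios of the 2 lines. Depth is unknown, so precision at the 1 to 2 TPM of MXD1 in siCDH3 libraries cannot be given.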
